A study of Mus musculus with 18 samples.

Results

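RNA of cells sorted from mouse embryos by the dose of the transcription factor FoxA2 was sequenced, and the cells of the middle gate were set against the cells of both other gates. The middle gate holds 6 of the 18 libraries, 3 from each of 2 genotypes, and the comparison asked which genes were highest or lowest at the middle dose and so did not follow the amount of FoxA2. All embryos were homozygous for a Foxa2 allele that carries tagRFP, a red fluorescent protein joined to the end of FoxA2, on a mixed C57Bl6/J and CD-1 background. In the wild-type allele (WT) FoxA2 is otherwise complete, and in the ΔHx allele (delta helix) 10 amino acids of an α-helix were removed from it. Embryos were taken at embryonic day 7.5 from superovulated females of 3 to 5 weeks, were not sexed, and had their extra-embryonic portion removed. Each sort took a pool of about 10 such embryos, so a library is a pool and not an animal. High cells were brighter than any cell of heterozygous embryos, Mid cells lay between the autofluorescence of embryos without the tag and the brightest heterozygous cells, and Neg cells lay below. The 6 groups (WT High, WT Mid, WT Neg, ΔHx High, ΔHx Mid, ΔHx Neg) have 3 biological replicates each, from 2500 to 5000 sorted cells.

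FoxA2 is a forkhead transcription factor that can bind its sites in closed chromatin. In the embryo at gastrulation it is needed for the node, the notochord and the definitive endoderm, the inner germ layer that forms the gut. It is also made in the visceral endoderm, the epithelium that covers the embryo, takes up maternal nutrients through endocytosis and apical carriers, digests them in lysosomes and secretes lipoproteins and plasma proteins. The parietal endoderm, a related layer, lays down the thick basement membrane of the yolk sac.

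Values are normalized read counts, which are reads divided by a size factor of the library. Differences between gates are differences of the mean log2(value + 1), averaged over both genotypes, and they understate the change of genes with few reads. A gene was said to peak in Mid when it was above High and above Neg and both differences passed 1 test together, and to dip when it was below both. That test takes the larger of the 2 p-values from limma, adjusted by the method of Benjamini and Hochberg over 14711 tested genes and called under 0.05. The size given for a gene is the smaller of its 2 differences, with its standard error (SE). The library method, SMART-Seq2, keeps no strand, and where 2 genes overlap on opposite strands their reads may be mixed. In these bulk libraries fewer cells that make an RNA and less of it per cell cannot be told apart.

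The depth was 12302196 to 17194136 reads in genes, spread over 15649 to 17917 genes with at least 1 read. The ribosomal RNA precursor Rn45s took 28.6% to 44.0% of these reads in Mid, 27.9% to 37.9% in High and 23.7% to 32.1% in Neg. Foxa2 itself, on chromosome 2 at 148042877 to 148046969 of mm10, stood at 547 to 1229 (median 716) in Mid, 1556 to 2483 (median 1963) in High and 20.3 to 62.5 (median 42) in Neg. The gates did not overlap in Foxa2 and followed the order of the sort, which is what the sort chose. The reads do not resolve the deleted helix, so this is no check of the genotype. One library stood apart: the genes of a list of parietal endoderm and basement membrane markers took 2.88% of the reads without Rn45s in WT Mid replicate 1 and 0.493% to 0.995% in the other 5 Mid libraries. The share was 0.679% to 0.783% in High and 0.222% to 0.234% in Neg. In ΔHx the Mid libraries (0.493% to 0.611%) were below the High libraries (0.679% to 0.715%), while WT Mid replicates 2 and 3 (0.797% and 0.995%) were above the WT High libraries (0.723% to 0.783%). Sex-linked genes also set WT Mid replicate 1 apart. Xist, on the X chromosome, was at 8087 in it and 1829 to 4667 in the other Mid libraries. Eif2s3y, on the Y chromosome, was at 111 and 194 to 409. The Mid means in WT and ΔHx were 4861 and 2758 for Xist and 192 and 387 for Eif2s3y. The part of sex in the results was not tested. The main counts are also given without WT Mid replicate 1, and so are the counts of the described lists that it moved by over 1.5 times.

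The contrast of Mid with the mean of High and Neg was passed by 2594 genes upward (17.6% of those tested) and 2492 downward (16.9%). Because the mean of High and Neg is a mean of logarithms, a gene that is merely intermediate can pass it. Of the genes that were above the mean, 1843 did not peak, and 879 of these were higher in High than in Neg and 385 lower. The test against both gates left 751 genes that peaked in Mid (5.11% of those tested) and 273 that dipped (1.86%). Taken singly, Mid was above High in 19.6% of the tested genes, below High in 19.4%, above Neg in 25.0% and below Neg in 24.1% (limma, adjusted p under 0.05), and counts of list members above or below 1 gate stand beside these shares. By contrast 854 genes rose and 768 fell at each step from Neg through Mid to High. Peaks outnumbered dips and were larger. The smaller difference was at least 1 on the log2 scale for 388 peaks and 79 dips, at least 2 for 194 peaks and 14 dips, and at least 3 for 79 peaks and 1 dip, with a median of 1.04 over the peaks and -0.63 over the dips. In 552 genes (3.75%) all 6 Mid libraries lay above all 12 others, and in 108 (0.734%) all lay below. Of the peaking genes 509, and of the dipping genes 95, had this full separation.

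The split between peaks and dips depended on scaling. Peaks were 73.3% of all peaks and dips with the deposited size factors and 61.1% with libraries set to equal totals, where the median difference of all genes from the mean of High and Neg moved from -0.02 to -0.15 and 51.0% against 33.2% of the calls on that contrast were upward. Of the peaks 85 entered the test through Mid alone, since they reached a value of 10 in no 3 libraries outside Mid, and for such a gene a higher level in Mid is part of the reason that it was tested. Of the genes named below these are Klb, Fga, Fxyd2, Pde6c, Serpinc1, Gc, Apoa2, Apoc3, Anks4b, Fabp1 and Slc6a2, whose p-values are not independent of that filter. Together the peaking genes took 7.04% to 9.89% of the reads without Rn45s in Mid, 3.56% to 4.55% in High and 3.03% to 3.15% in Neg. The dipping genes took 1.13% to 1.39% in Mid, 1.78% to 2.04% in High and 1.85% to 1.88% in Neg.

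**Figure D1:**
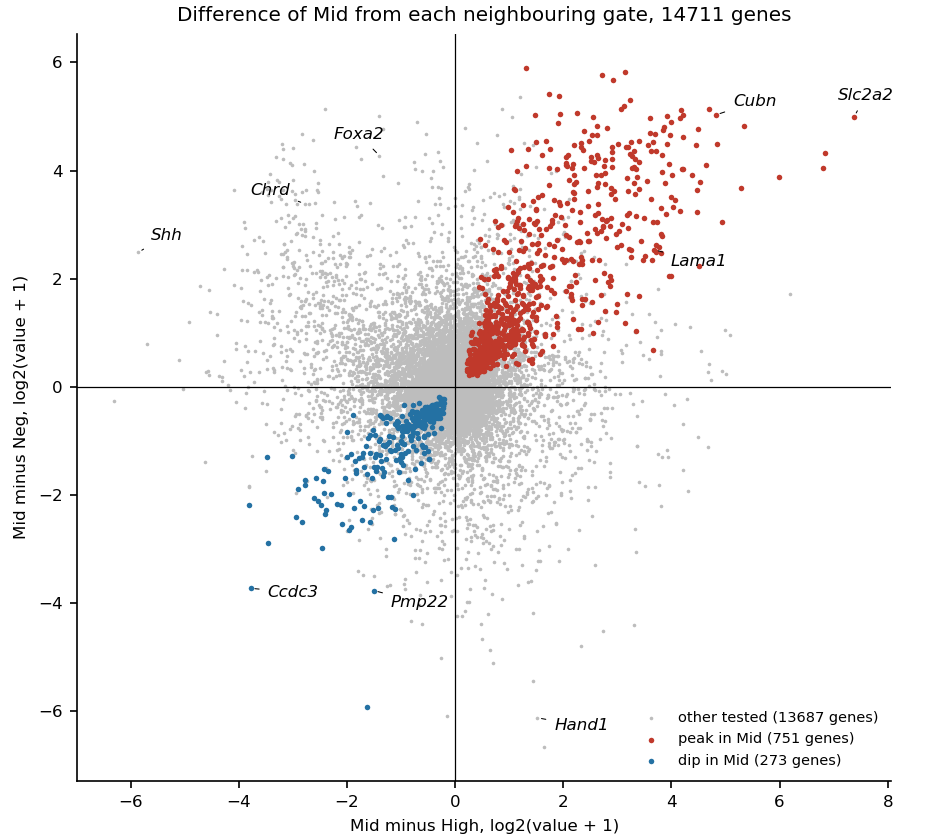
Each point is 1 of the 14711 tested genes, with its difference of Mid from High on the x axis and of Mid from Neg on the y axis, both in log2(value + 1), averaged over both genotypes (6 libraries a gate). The 751 peaking genes lie at the upper right and the 273 dipping genes at the lower left, while Foxa2, Chrd and Shh lie at the upper left, below High and above Neg, and Hand1 at the lower right.

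The largest peaks among genes with full separation and a mean of at least 20 in Mid were led by Slc2a2, which encodes a glucose transporter of liver, gut and kidney. Slc2a2 reached 136 to 546 (median 325) in Mid, 0 to 5.46 (median 0.453) in High and 1.12 to 27.4 (median 15.5) in Neg. Its smaller difference, from Neg, was 5.00 ± 0.60 (SE, adjusted p = 9.45e-06). It was near 0 in High and low in Neg, and every Mid library was far above both. Klb, the co-receptor through which endocrine FGFs act on liver and fat, was at 109.8 to 247 (median 164) in Mid, 0 to 9.06 (median 3.59) in High and 2.06 to 11.8 (median 4.01) in Neg, 4.83 ± 0.47 above its nearer gate, Neg (adjusted p = 7.83e-07). Cubn, the scavenger receptor cubilin of the visceral endoderm and the kidney, was at 7595 to 9489 (median 8677) in Mid, 156 to 881 (median 257) in High and 137 to 419 (median 253) in Neg, 4.83 ± 0.29 above High (adjusted p = 1.46e-09). The Mid libraries of Cubn were within 7595 and 9489 in both genotypes, and High and Neg overlapped each other.

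Cdhr2, a protocadherin that links brush border microvilli, was at 137 to 319 (median 209) in Mid, 0 to 26.4 (median 7.18) in High and 0 to 18.6 (median 8.64) in Neg. Fga, the fibrinogen α chain, was at 60.4 to 231 (median 117) in Mid, 0 to 11.8 (median 6.27) in High and 0.933 to 12.2 (median 5.04) in Neg. Fxyd2, a regulatory subunit of the sodium pump, was at 53.4 to 121 (median 94.2) in Mid, 0 to 13.2 (median 3.11) in High and 1.23 to 6.19 (median 3.2) in Neg. All 3 had libraries at or near 0 in High, and their sizes were 4.69 ± 0.74, 4.49 ± 0.61 and 4.45 ± 0.45 (adjusted p = 0.000227, 4.16e-05 and 1.35e-06). Pde6c, the phosphodiesterase of cone photoreceptors, was at 12.3 to 54 (median 49) in Mid, 0 to 3.64 (median 1.64) in High and 0 to 1.01 (median 0) in Neg, with a size of 4.22 ± 0.52 (adjusted p = 1.33e-05). Its lowest Mid library, WT Mid replicate 1, was well below the other 5 and still above every other library.

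Serpinc1, which encodes the clotting inhibitor antithrombin, was at 46.6 to 109 (median 63.7) in Mid, 0 to 12.7 (median 3.07) in High and 0 to 11.1 (median 1.99) in Neg, with a size of 4.21 ± 0.66 (adjusted p = 0.000204). Apoa4, an apolipoprotein of chylomicrons, was at 681 to 1209.9 (median 925) in Mid, 15.7 to 143 (median 46.7) in High and 5.58 to 38.2 (median 33.9) in Neg, with a size of 4.17 ± 0.41 (adjusted p = 7.01e-07). The vitamin D dependent calcium binding protein S100g was at 189 to 804 (median 381) in Mid, 6.6 to 70.1 (median 22.1) in High and 6.7 to 17.5 (median 11.8) in Neg, with a size of 4.16 ± 0.39 (adjusted p = 4.75e-07). Lgals2, a galectin, was at 90.4 to 281 (median 199) in Mid, 4.38 to 12.7 (median 5.19) in High and 5.07 to 19.6 (median 10.1) in Neg, with a size of 4.11 ± 0.33 (adjusted p = 7.92e-08). In none of these genes did the Mid contrast differ between WT and ΔHx (limma interaction, adjusted p = 0.909 to 0.996), which does not show that the genotypes were alike.

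**Figure D2:**
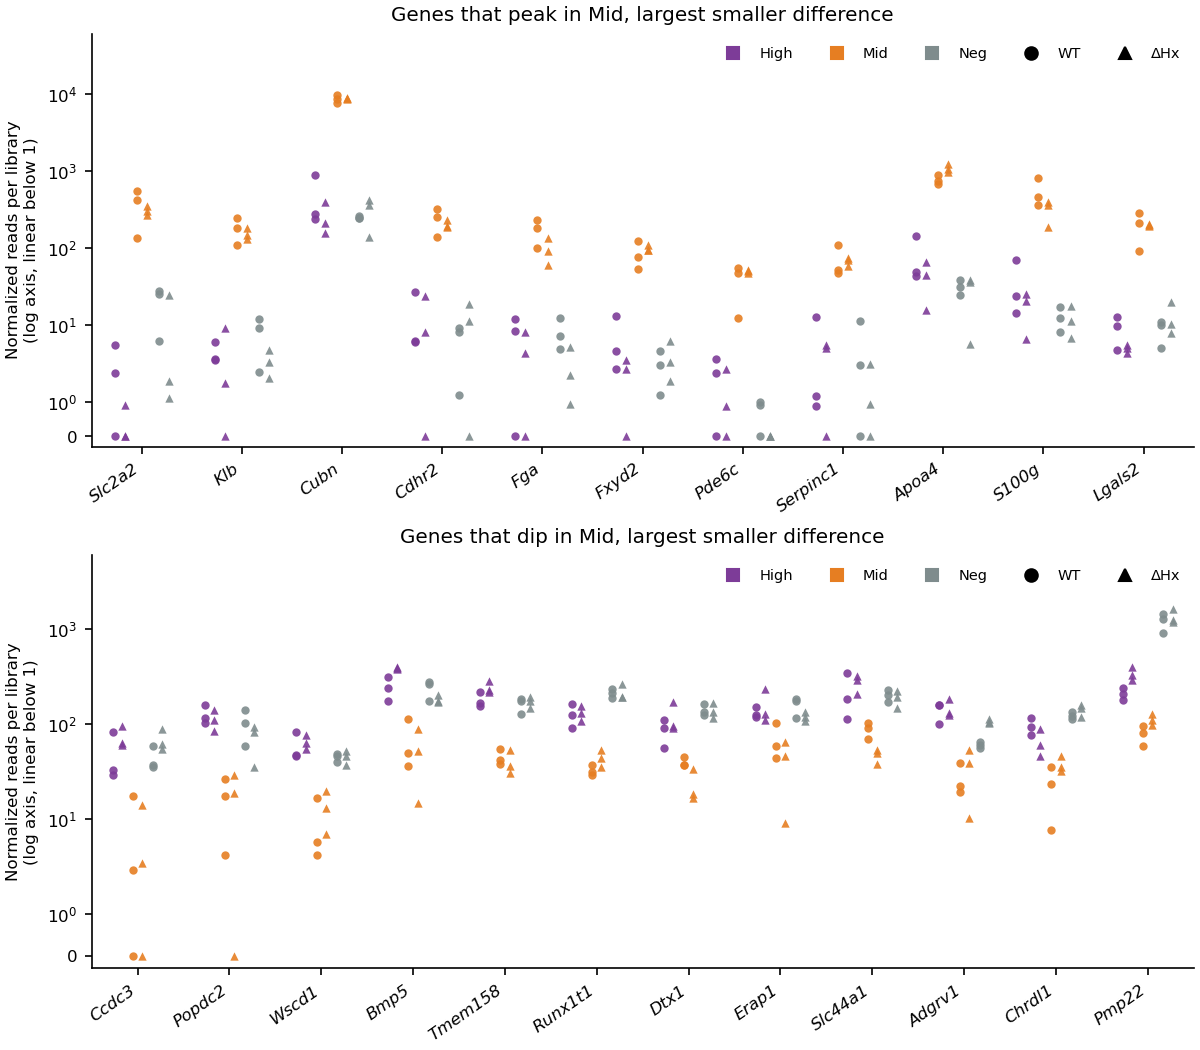
Normalized read counts of each library on a log axis that is linear below 1, for the named largest peaks (top) and the 12 largest dips (bottom), with High in purple, Mid in orange and Neg in grey, circles for WT and triangles for ΔHx. In each gene all 6 Mid libraries lie above (top) or below (bottom) the 12 others.

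The stretch before the start of transcription was read for these genes because so many rose together. The 250 bases upstream of the first listed start, from RefSeq on GRCm38.p6, follow for the 4 largest peaks and the 2 largest dips, 5′ to 3′ on the strand of the gene. Capitals mark short motif forms, each searched on both strands. GTTAAT is the core of an HNF1 site. An HNF4 site was searched in a form written CAAAGTC, and in a further form of that site written CAAAGGT. The site of GATA factors was searched in the form AGATAA alone, and further forms of that site were not searched. A forkhead site was searched in a form written TGTTTAC, and in a further form of that site written TGTTTGC. HNF1 and HNF4 are the families of transcription factors that drive liver, gut and kidney genes.
Slc2a2 (chr3:28697653-28697902, plus strand): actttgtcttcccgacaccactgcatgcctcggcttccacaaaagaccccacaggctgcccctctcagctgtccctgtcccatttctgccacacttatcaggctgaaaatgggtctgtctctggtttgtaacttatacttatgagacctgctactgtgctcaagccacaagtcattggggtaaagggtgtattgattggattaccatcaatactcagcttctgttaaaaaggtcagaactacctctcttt
Klb (chr5:65348161-65348410, plus strand): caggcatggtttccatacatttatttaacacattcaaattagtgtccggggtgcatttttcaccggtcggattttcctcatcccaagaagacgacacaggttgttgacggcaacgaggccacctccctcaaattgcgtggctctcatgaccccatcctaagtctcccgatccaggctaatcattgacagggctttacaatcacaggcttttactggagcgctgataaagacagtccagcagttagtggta
Cubn (chr2:13491877-13492126, minus strand): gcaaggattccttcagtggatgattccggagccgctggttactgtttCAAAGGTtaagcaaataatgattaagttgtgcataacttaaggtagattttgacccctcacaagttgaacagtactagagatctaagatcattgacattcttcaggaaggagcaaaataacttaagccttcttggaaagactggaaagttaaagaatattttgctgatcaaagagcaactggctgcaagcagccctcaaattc
Cdhr2 (chr13:54701213-54701462, plus strand): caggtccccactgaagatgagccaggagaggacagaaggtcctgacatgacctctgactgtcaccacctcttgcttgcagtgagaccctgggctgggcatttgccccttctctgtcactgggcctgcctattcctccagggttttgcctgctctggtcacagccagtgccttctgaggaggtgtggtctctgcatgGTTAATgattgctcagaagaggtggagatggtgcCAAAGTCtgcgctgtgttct
Ccdc3 (chr2:5137526-5137775, plus strand): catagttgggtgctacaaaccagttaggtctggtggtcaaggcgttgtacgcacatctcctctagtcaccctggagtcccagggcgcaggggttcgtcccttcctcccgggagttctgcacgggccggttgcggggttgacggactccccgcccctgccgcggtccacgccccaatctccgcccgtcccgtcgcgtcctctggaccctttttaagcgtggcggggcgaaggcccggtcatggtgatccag
Popdc2 (chr16:38361940-38362189, plus strand): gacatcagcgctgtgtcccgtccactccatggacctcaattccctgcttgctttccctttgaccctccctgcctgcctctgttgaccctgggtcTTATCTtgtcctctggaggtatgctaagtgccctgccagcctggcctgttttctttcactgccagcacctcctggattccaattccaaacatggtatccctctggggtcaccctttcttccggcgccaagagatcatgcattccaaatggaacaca
Cubn holds 1 such stretch, a form of the HNF4 site that begins 203 bases before the start. Cdhr2 holds an HNF1 core that begins 54 bases and an HNF4 form that begins 20 bases before the start. Popdc2 holds a GATA form on the other strand 156 bases before the start, and in Slc2a2, Klb and Ccdc3 none of these letters occur in this window.

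A promoter was found for 591 of the 751 peaking genes, 210 of the 273 dipping genes and 11157 of the 14711 tested genes. At least 1 of the 3 HNF forms stood in 16.4% of the promoters of peaking genes, in 33.8% (52 of 154) of those with a size of at least 2, in 6.67% of those of dipping genes and in 9.60% of all. A forkhead form stood in 6.60%, 11.04%, 5.24% and 5.26% of the same sets, and the GATA form in 5.92%, 9.74%, 8.57% and 5.88%. The median GC content was 58.4%, 51.4%, 61.4% and 60%, so the promoters of the largest peaks were also the poorest in GC. These shares are descriptions of letters, and binding was not measured.

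Most markers of the visceral endoderm peaked in Mid. Of 27 tested members of that list 21 peaked and 0 dipped, and 24 had a Mid mean above both others. The median difference from the mean of High and Neg was 3.34 over the list and -0.02 over all genes. The listed genes took 0.971% to 1.16% of the reads without Rn45s in Mid, 0.474% to 0.611% in High and 0.142% to 0.179% in Neg. No member was at 0 in all libraries. Ttr, the carrier of thyroid hormone and of the retinol binding protein, was at 4894 to 6199 (median 5502) in Mid, 192 to 1178 (median 426) in High and 115 to 247 (median 167) in Neg. Rbp4, which encodes that retinol binding protein, was at 3815 to 5975 (median 4974) in Mid, 177 to 605 (median 325) in High and 112 to 296 (median 235) in Neg. Their sizes were 3.61 ± 0.28 and 3.92 ± 0.27 (adjusted p = 3.75e-08 and 8.34e-09), and no Mid library overlapped another gate. Afp, the α-fetoprotein of yolk sac and fetal liver, was at 2961 to 3745 (median 3433) in Mid, 56.9 to 965 (median 337) in High and 81.5 to 195 (median 144) in Neg, with a size of 3.40 ± 0.33 (adjusted p = 6.94e-07). Its highest High library was 965 in WT High replicate 2, the High library with the largest share of listed reads, 0.611%.

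The 6 listed genes that did not peak were Lrp2, Sox17, Gata6, Cldn6, Emb and Cyp26a1. Lrp2 encodes megalin, the partner of cubilin, and stood at 1084 to 1596 (median 1326) in Mid, 55 to 145 (median 105) in High and 683 to 1195 (median 797) in Neg. Its smaller difference, from Neg, was 0.62 ± 0.20, and the test against both gates did not call it (adjusted p = 0.0776). Sox17, a transcription factor of both endoderm layers, was at 1188 to 2013 (median 1556) in Mid, 1309.5 to 1973 (median 1519) in High and 102 to 179 (median 143) in Neg, with Mid and High overlapping. Cldn6, a tight junction protein, was lower at each step from High through Mid to Neg and stood at 6435 to 9762 (median 8882) in Mid, 11342 to 15499 (median 13731) in High and 1388 to 1823 (median 1612) in Neg. Foxa2 itself was lower in Mid than in High. The part that the share of visceral endoderm cells in a gate has in the peak was not tested.

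Secreted proteins showed the same order. In the list of plasma proteins 17 of 26 tested members peaked and 0 dipped, with a median difference of 3.41, and 5 members (Alb, Itih2, Serpina1b, Kng1 and Cp) had too few reads to be tested. Of the 17 peaks 4 entered the test through Mid alone. Serpinf2, the plasmin inhibitor, was at 174 to 356 (median 259.6) in Mid, 0 to 51 (median 24) in High and 7.39 to 12.2 (median 8.59) in Neg, with a size of 3.97 ± 0.58 (adjusted p = 9.29e-05). Gc, the vitamin D binding protein, was at 17.2 to 73 (median 45.6) in Mid, 0 to 3.6 (median 0.882) in High and 0 to 13.6 (median 4.08) in Neg, with a size of 3.24 ± 0.47 (adjusted p = 8.58e-05). The 3 fibrinogen chains, which are neighbours on chromosome 3, did not move as a block. Fgb, at 83040141 to 83049863 (mm10), was at 169.9 to 478 (median 316) in Mid, 8.25 to 156 (median 44.5) in High and 2.23 to 17.2 (median 10.1) in Neg and peaked, with a size of 3.06 ± 0.49 (adjusted p = 0.000263), as Fga did. Fgg, at 83007724 to 83015049, was at 114 to 317 (median 173) in Mid, 154 to 388 (median 317) in High and 7.81 to 14.5 (median 10.5) in Neg. Fgg was thus lower in Mid than in High by its mean (-0.62 ± 0.26), with the 2 gates overlapping, and did not peak. It was named after its values were seen.

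Of 19 tested members of the lipoprotein list 11 peaked and 0 dipped, with a median difference of 2.31, and 2 of the 11 entered the test through Mid alone. Apoa1, the main protein of high density lipoprotein, was at 7301 to 10157 (median 8203) in Mid, 338 to 1706 (median 739) in High and 169.7 to 442 (median 342) in Neg, with a size of 3.60 ± 0.25 (adjusted p = 1.1e-08). Apob, the backbone of low density and very low density lipoprotein, was at 5573 to 7409.8 (median 6642) in Mid, 290.3 to 1628 (median 867) in High and 77 to 373 (median 163) in Neg, with a size of 3.13 ± 0.32 (adjusted p = 1.42e-06). Mttp, which loads lipid on it, was at 1907 to 3666 (median 2774) in Mid, 181 to 693 (median 382) in High and 182 to 314 (median 217) in Neg, with a size of 2.88 ± 0.16 (adjusted p = 7.65e-10). Every Mid library of these 3 genes was above the 12 others. Apom and Apoa2 had sizes of 3.69 ± 0.28 and 3.32 ± 0.40 (adjusted p = 3.75e-08 and 9.42e-06). On chromosome 9 the genes Apoa1, Apoc3, Apoa4 and Apoa5 lie within 46228580 and 46271919 (mm10). Apoc3, an inhibitor of lipoprotein lipase, was at 39.7 to 87.2 (median 57.2) in Mid, 0.877 to 12.7 (median 8.28) in High and 0 to 5.07 (median 1.55) in Neg and peaked, with a size of 3.19 ± 0.55 (adjusted p = 0.000536). Apoa5, which activates that enzyme, was at 30.8 to 66.3 (median 55.6) in Mid, 0 to 32.8 (median 21.2) in High and 0 to 6.7 (median 2.48) in Neg. Its Mid mean was the highest of the 3 gates, and the test did not call it (1.86 ± 0.65, adjusted p = 0.107).

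Uptake and digestion followed. Among endocytic receptors and adaptors 9 of 18 tested members peaked and 0 dipped, with a median difference of 1.60. Amn, the membrane anchor of cubilin, was at 2976 to 4509.9 (median 3455) in Mid, 159.98 to 775 (median 349) in High and 112 to 235 (median 181) in Neg, with a size of 3.30 ± 0.28 (adjusted p = 1.45e-07). Dab2, the adaptor that carries megalin and cubilin into coated pits, was at 6988 to 9656 (median 7729) in Mid, 365 to 1947 (median 919.8) in High and 644 to 1098 (median 896) in Neg, with a size of 3.18 ± 0.21 (adjusted p = 4.2e-09). High and Neg overlapped in Dab2, and its differences from each were nearly equal. Clic5, a protein of the apical actin cortex, had a size of 3.93 ± 0.60 (adjusted p = 0.000157). Of 20 lysosomal proteases and hydrolases 17 peaked and 0 dipped, with a median difference of 1.02. The cathepsin Ctsl was at 10020.4 to 17781 (median 11445) in Mid, 1766 to 3225 (median 2451) in High and 2394 to 2654 (median 2448) in Neg, with a size of 2.29 ± 0.11 (adjusted p = 8.8e-11). Ctsb, another cathepsin, was at 3873 to 4955 (median 4306) in Mid, 1174 to 1295 (median 1217) in High and 993 to 1236 (median 1032) in Neg, with a size of 1.82 ± 0.07 (adjusted p = 9.67e-13). No Mid library overlapped another gate in these 2 genes. Ctsh and Lgmn, one more cathepsin and the asparagine-specific protease legumain, had sizes of 2.62 ± 0.20 and 2.32 ± 0.13 (adjusted p = 3.99e-08 and 7.9e-10).

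At the apical surface 11 of 19 tested brush border genes peaked and 0 dipped, with a median difference of 1.88. Of the 11 peaks 1, Anks4b, entered the test through Mid alone. Muc13, a membrane mucin, was at 163 to 279 (median 222) in Mid, 1.65 to 101 (median 41.9) in High and 3.35 to 32 (median 14.6) in Neg, with a size of 2.91 ± 0.60 (adjusted p = 0.00316). Dpp4, a peptidase of the brush border, was at 1526 to 2538 (median 1853) in Mid, 198 to 685 (median 396) in High and 41.6 to 130.1 (median 65.5) in Neg, with a size of 2.38 ± 0.20 (adjusted p = 1.44e-07). Anks4b, a scaffold of the microvillus tip, had few reads, at 9.59 to 54.4 (median 20.9) in Mid, 0 to 16.3 (median 2.26) in High and 0 to 3.1 (median 0.906) in Neg, with a size of 2.77 ± 0.69 (adjusted p = 0.0156), and its call ended without ΔHx Mid replicate 3 (adjusted p = 0.0505) or WT Mid replicate 2 (0.0552). Of 22 tested solute carriers 11 peaked and 0 dipped, with a median difference of 1.29. Slc7a9, the cystine and basic amino acid transporter, was at 228 to 416 (median 324) in Mid, 8.86 to 59.2 (median 21.4) in High and 7.39 to 27.2 (median 14.8) in Neg, with a size of 3.82 ± 0.41 (adjusted p = 2.29e-06). Slc39a5, a zinc importer, and Slc7a8, a neutral amino acid transporter, had sizes of 2.90 ± 0.24 and 2.76 ± 0.26 (adjusted p = 1.06e-07 and 4.75e-07). All libraries of Mid were above the others in these 3 carriers. The 7 lists share members, and they were chosen with earlier results of these data known, so their counts are descriptions.

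Endoderm transcription factors moved less as a group: 3 of 26 tested members peaked and 0 dipped, beside 5.11% and 1.86% of all genes. In this list 18 were above Neg while 6 were above and 5 below High, beside 25.0%, 19.6% and 19.4% of all genes. Hnf4a, a nuclear receptor that drives the secretory genes of liver and visceral endoderm, was at 451 to 834 (median 583) in Mid, 28.1 to 148 (median 71.7) in High and 1.12 to 23.7 (median 11.7) in Neg, with a size of 3.14 ± 0.47 (adjusted p = 0.000143). Gata4, a zinc finger factor of endoderm and heart, was at 879 to 3391 (median 1129.9) in Mid, 156 to 379.5 (median 211) in High and 539 to 757 (median 666) in Neg, with a size of 0.99 ± 0.22 from Neg (adjusted p = 0.00692). The order outside Mid differed, since Hnf4a was higher in High than in Neg and Gata4 was lower. The FoxA paralogs did not share the pattern. Foxa1 was at 176 to 376 (median 285) in Mid, 503 to 1181 (median 702) in High and 2.03 to 21.2 (median 9.16) in Neg, with Mid below High (difference -1.42 ± 0.38). Foxa3 was at 226 to 396 (median 341) in Mid, 176 to 314 (median 267) in High and 8.15 to 49.5 (median 19.2) in Neg, with Mid and High overlapping (smaller difference 0.34 ± 0.22, adjusted p = 0.64).

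**Figure D3:**
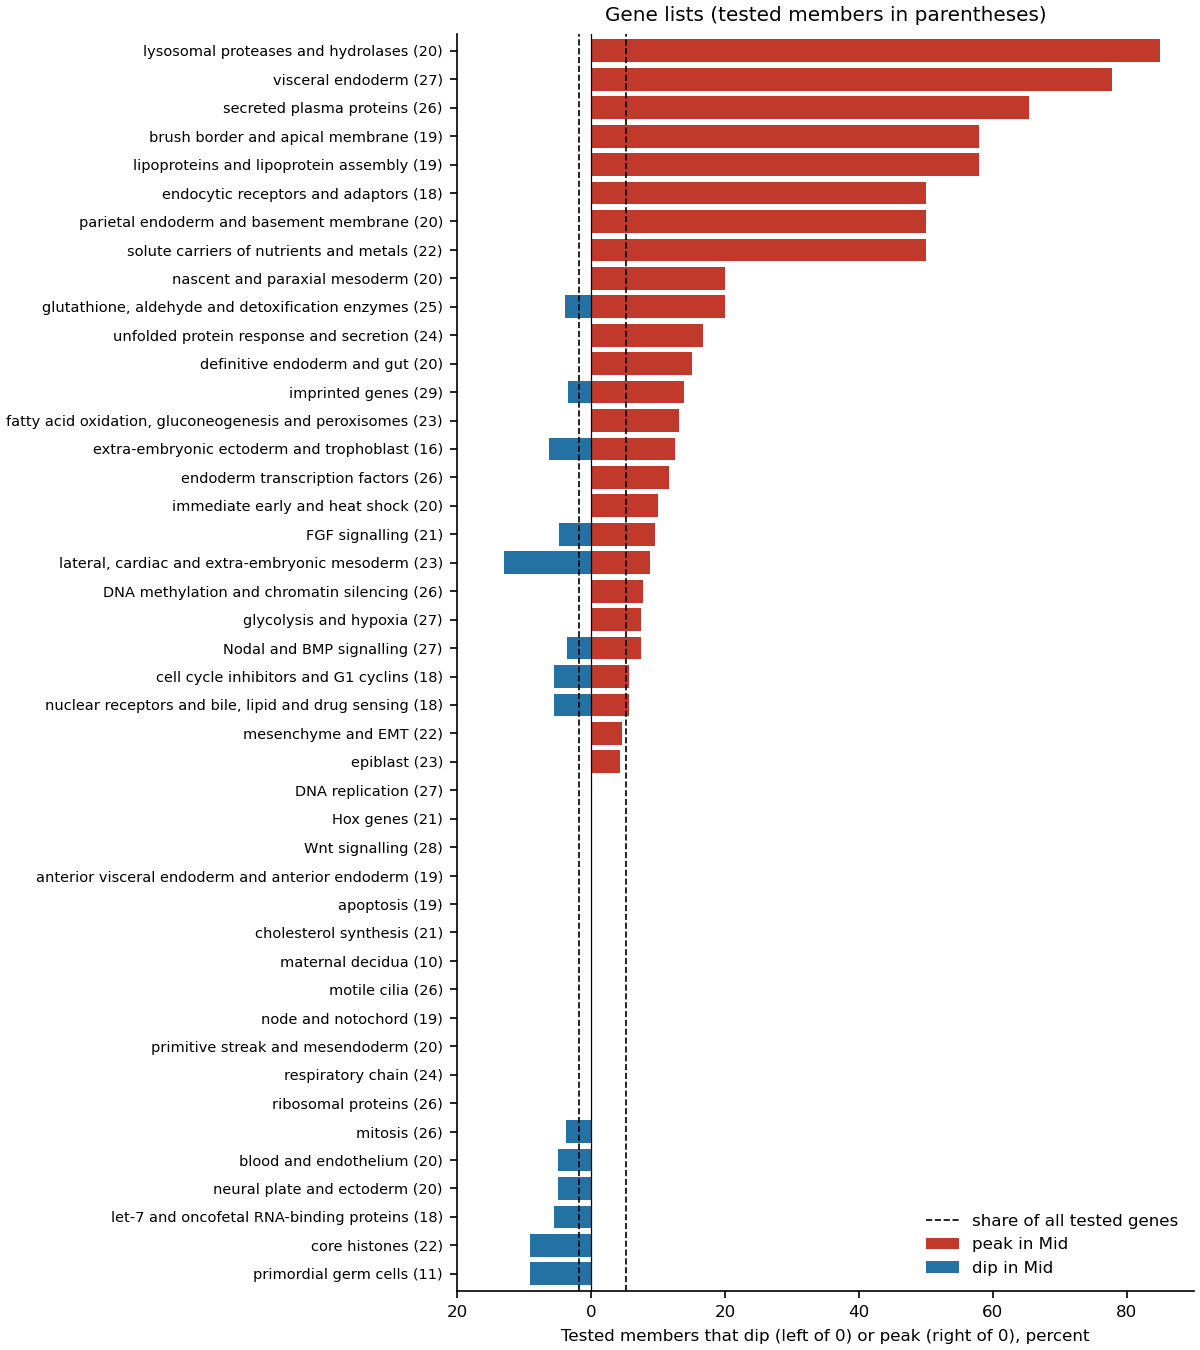
Share of the tested members of each of 44 gene lists that peak (red, to the right) or dip (blue, to the left), with the number tested in parentheses and dashed lines at the shares of all tested genes, 5.11% and 1.86%. The 8 lists at the top, from lysosomal enzymes to solute carriers, have at least 9 peaking members each, and the node, motile cilia, streak and Hox lists have 0.

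The parietal endoderm and basement membrane list held 10 peaks and 0 dips among 20 members, with a median difference of 1.47. Lama1, the laminin α chain of embryonic basement membranes, was at 30072, 4065 and 7011 in WT Mid replicates 1 to 3 and at 1141, 1010 and 1432 in ΔHx Mid. The High libraries lay between 156 and 371 and the Neg libraries between 504 and 664. Every Mid library of Lama1 was therefore above the 12 others, and WT Mid replicate 1 was the highest. Its size was 2.54 ± 0.31 (adjusted p = 1.42e-05). Pth1r, a receptor for the parathyroid hormone related protein that promotes parietal endoderm, and Thbd, thrombomodulin, had sizes of 2.62 ± 0.24 and 2.63 ± 0.64 (adjusted p = 3.14e-07 and 0.0117). Thbd was at 1769, 312 and 444 in WT Mid replicates 1 to 3 and 41.9, 27.3 and 50.2 in ΔHx Mid, and the ΔHx Mid libraries overlapped Neg.

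The collagen IV genes Col4a1 and Col4a2 lie head to head on chromosome 8. Col4a1 was at 68389, 12276 and 21480.2 in WT Mid replicates 1 to 3 and 6076, 5449.8 and 7687 in ΔHx Mid. Col4a2 was at 32599.9, 6428 and 9378 in WT Mid replicates 1 to 3 and 2796, 2632 and 4193 in ΔHx Mid. In High they lay between 2908 and 4851 and between 1406 and 2521. Their sizes were 1.82 ± 0.25 and 1.82 ± 0.26 (adjusted p = 5.5e-05 and 6.14e-05). Every ΔHx Mid library of these collagens was below every WT Mid library and above every High and Neg library. In the fit of the WT libraries alone 10 of the 20 listed genes peaked, with a median difference of 2.39, and in the fit of the ΔHx libraries alone 5 did, with a median of 0.77. Without WT Mid replicate 1 the fit of both genotypes still called 10 peaks in this list. The part of this layer's markers in other peaks of WT Mid was not tested. Of the other listed genes, the keratins Krt8, Krt18 and Krt19 were lower in Mid than in High.

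**Figure D4:**
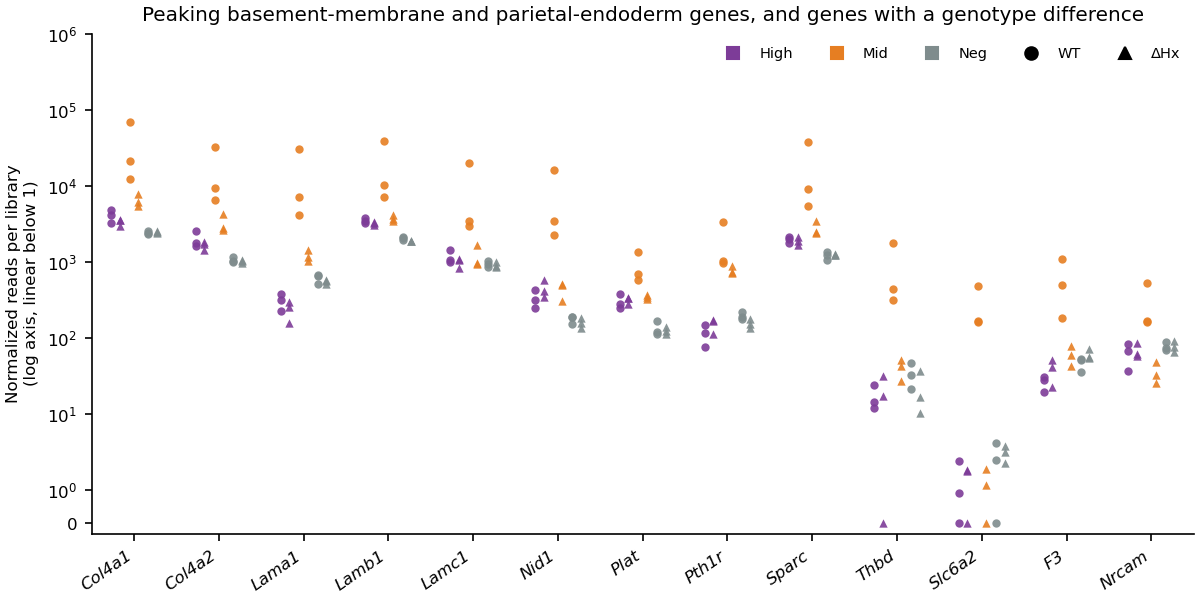
Normalized read counts of each library, on a log axis that is linear below 1, for the 10 peaking genes of the parietal endoderm and basement membrane list and for Slc6a2, F3 and Nrcam, with High in purple, Mid in orange and Neg in grey, circles for WT and triangles for ΔHx. The WT Mid circles lie above the ΔHx Mid triangles, with the highest, WT Mid replicate 1, at 30072 for Lama1.

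The other lists held 5 peaks or fewer each. Of 20 nascent and paraxial mesoderm genes 4 peaked, beside 5.11% of all genes. Their median difference was 1.25 over the list, and 17 were above High while 9 were above Neg (19.6% and 25.0% of all genes). Dll1, which encodes a Notch ligand used in somite formation, was at 2343 to 4019.7 (median 2791) in Mid, 589.8 to 1672 (median 1113) in High and 1677 to 2248 (median 1957) in Neg, with a size of 0.61 ± 0.11 from Neg (adjusted p = 0.000585). Meox1, a homeodomain factor of somites, was at 229 to 919 (median 560.2) in Mid, 26.4 to 67 (median 41.4) in High and 262 to 464 (median 309.9) in Neg, with a size of 0.69 ± 0.19 (adjusted p = 0.0328). Dll3, a second Notch ligand, and Foxc1, a forkhead factor of paraxial mesoderm, had sizes of 0.49 ± 0.14 and 1.18 ± 0.30 (adjusted p = 0.0331 and 0.0173). The calls of Meox1, Dll3 and Foxc1 were lost under 11, 9 and 3 of the alternatives. Without WT Mid replicate 1 the list held 2 peaks, with Foxc1 at an adjusted p of 0.0548 and Dll3 at 0.0741, and with equal totals it also held 2. Other settings gave more, with 8 peaks by edgeR, 8 by DESeq2 and 9 with array weights. Tbx6, Msgn1 and Mesp1, factors of the same lineage, did not peak, and Mesp1 was at 559 to 1200.1 (median 686) in Mid, 10.01 to 96.5 (median 51.2) in High and 823 to 1125 (median 961) in Neg.

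Imprinted genes gave 4 peaks and 1 dip among 29 tested by limma, beside 5.11% and 1.86% of all genes. By edgeR they gave 7 peaks and 0 dips, by DESeq2 6 and 2, and with array weights 9 peaks. H19, a long noncoding RNA expressed from the maternal allele, was at 4181 to 13330.3 (median 7769) in Mid, 737 to 2415 (median 1316) in High and 1324 to 1922 (median 1468) in Neg, with a size of 2.35 ± 0.26 (adjusted p = 3.82e-06). Igf2, its paternally expressed neighbour on chromosome 7, was at 1809.8 to 3818 (median 2442) in Mid, 464 to 959 (median 712) in High and 1593 to 2185 (median 1858) in Neg and did not peak (0.40 ± 0.15 above Neg, adjusted p = 0.14). On chromosome 12 Rian and Rtl1, on opposite strands of the Dlk1 region, had sizes of 0.96 ± 0.14 and 1.06 ± 0.25 (adjusted p = 9.58e-05 and 0.00833). Meg3, which starts between Dlk1 and them, was at 731 to 2372 (median 1652) in Mid, 636 to 1373 (median 941) in High and 474 to 802 (median 666) in Neg and missed the threshold (0.75 ± 0.23, adjusted p = 0.0559). Dlk1 itself was at 138 to 247 (median 219) in Mid, 27.6 to 72.8 (median 38.8) in High and 191 to 419 (median 289) in Neg, with Mid and Neg overlapping. Sgce, a sarcoglycan expressed from the paternal allele, had a size of 0.88 ± 0.14 (adjusted p = 0.000204), and Ndn, a gene of the Prader-Willi region, dipped (-0.40 ± 0.12, adjusted p = 0.0407). The dip of Ndn was not called by edgeR. In the trophoblast list 2 of 16 tested genes peaked and 1 dipped, beside 5.11% and 1.86% of all genes. The median difference over that list was -0.74, and 9 members were below Neg (24.1% of all genes). The peaks were Rhox5 and Rhox6, homeobox genes of the X chromosome, with sizes of 2.62 ± 0.24 and 2.59 ± 0.53 (adjusted p = 3.79e-07 and 0.00292). Rhox6 belongs to a family of close copies, so its reads are uncertain. Elf5, a factor of trophoblast stem cells, was at 1.37 to 18.5 (median 3.29) in Mid, 0 to 4.55 (median 0.877) in High and 14.5 to 79.7 (median 44.7) in Neg, below Neg in its mean.

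Signalling genes split by member. Fgfr4, an FGF receptor that can pair with Klb, was at 198 to 529 (median 349.9) in Mid, 54.4 to 138 (median 57) in High and 7.23 to 30.8 (median 12.6) in Neg, with a size of 2.20 ± 0.32 (adjusted p = 0.000104). Fgfr2 dipped, at 351 to 544 (median 496) in Mid, 706 to 1012 (median 886) in High and 656 to 934 (median 816) in Neg, with a size of -0.73 ± 0.12 (adjusted p = 0.00027). All Mid libraries were above the others for Fgfr4 and below them for Fgfr2. Fgfr1, at 1674 to 2538 (median 2126) in Mid, 1635 to 1873 (median 1816) in High and 3244 to 3829.7 (median 3572) in Neg, was not called. Fgfr3, at 378 to 769 (median 471) in Mid, 153 to 274 (median 233) in High and 417 to 491 (median 422) in Neg, was not called either. Among BMP ligands Bmp2 peaked, at 377 to 799 (median 545) in Mid, 198 to 439.6 (median 267) in High and 209 to 354 (median 273) in Neg, with a size of 0.97 ± 0.18 (adjusted p = 0.00139). Bmp4 dipped, at 28.8 to 100.5 (median 72.3) in Mid, 123 to 170.2 (median 151) in High and 441 to 541 (median 466) in Neg, with a size of -1.13 ± 0.21 (adjusted p = 0.00106), and Bmp5 dipped too. Bmp7 was lower in Mid than in High (difference -1.81 ± 0.13) and higher than in Neg. Over the whole lists, 2 of 21 FGF genes peaked and 1 dipped, beside 5.11% and 1.86% of all genes. Of these 2 peaks, Klb entered the test through Mid alone. Among 27 Nodal and BMP genes 2 peaked and 1 dipped. Of 28 Wnt genes 0 did either by limma, edgeR and DESeq2. At an unadjusted p under 0.05 (limma) 1 Wnt gene peaked and 1 dipped, beside 1350 and 832 of all 14711 genes.

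The cell cycle lists held 1 peak and 2 dips: 1 of each among 18 inhibitors and G1 cyclins, 1 dip among 26 mitosis genes and 0 of either among 27 DNA replication genes, beside 5.11% and 1.86% of all genes. Ccnd2, a cyclin of the G1 phase, was at 975 to 1869.9 (median 1403) in Mid, 2094 to 2903 (median 2535) in High and 3005 to 3258 (median 3204) in Neg, with a size of -0.88 ± 0.12 (adjusted p = 3.17e-05), and every Mid library was below the 12 others. Cdkn1a, an inhibitor of cyclin-dependent kinases, was at 281 to 406 (median 323) in Mid, 191 to 245 (median 221) in High and 116 to 219 (median 178) in Neg and peaked, with a size of 0.55 ± 0.15 (adjusted p = 0.0331). In its list edgeR and DESeq2 each called 1 peak, but the fits of WT alone and of ΔHx alone called 0. Top2a, the topoisomerase of dividing cells, dipped by a small amount (-0.23 ± 0.06, adjusted p = 0.0202), and the adjusted p was above 0.05 on leaving out WT Mid replicate 1 (0.0504), WT High replicate 3 (0.0567), ΔHx High replicate 3 (0.0518) or ΔHx Mid replicate 3 (0.0532), and with quantile normalization (0.0877). Of 26 mitosis genes 1 dipped and 0 peaked by limma, 1 and 0 by edgeR, and 2 and 0 by DESeq2. At an unadjusted p under 0.05 (limma) 8 dipped and 0 peaked, beside 832 and 1350 of all 14711 genes. In the list as a whole 21 members were below Neg, beside 24.1% of all genes, and 8 below High, beside 19.4%. Of 27 DNA replication genes 0 peaked and 0 dipped by limma, edgeR and DESeq2, also at an unadjusted p under 0.05, while 23 were below Neg and 15 above High (24.1% and 19.6% of all genes).

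Enzymes and stress genes gave scattered peaks. Among detoxification enzymes 5 of 25 peaked and 1 dipped, beside 5.11% and 1.86% of all genes. Gpx3, a secreted glutathione peroxidase, was at 1492 to 2332 (median 1639) in Mid, 481 to 574 (median 528) in High and 424 to 598 (median 476) in Neg, with a size of 1.70 ± 0.10 (adjusted p = 2e-09). Akr1c13, Akr1c19 and Aldh3a2, reductases and a dehydrogenase of lipids and aldehydes, had sizes of 1.31 ± 0.33, 1.03 ± 0.28 and 0.64 ± 0.16 (adjusted p = 0.0156, 0.0261 and 0.0151). The Akr1c genes are close copies of each other, so their reads are uncertain. The call of Akr1c19 ended without 1 of 6 libraries (ΔHx High replicate 3, ΔHx Mid replicates 1 and 3, WT High replicates 1 and 3, WT Mid replicate 2, adjusted p = 0.051 to 0.0746) and with equal totals (0.0578). That of Aldh3a2 ended without ΔHx Neg replicate 3 (0.0508), with quantile normalization (0.0705) and with equal totals (0.137), and that of Akr1c13 with a pseudocount of 0.5 (0.0511). Fabp1, the fatty acid binding protein of liver, had a size of 2.94 ± 0.56 (adjusted p = 0.00159). In the secretory pathway Kdelr3, a receptor that returns proteins to the endoplasmic reticulum, and Creb3l1, a stress-activated factor of secretory cells, had sizes of 3.31 ± 0.30 and 1.52 ± 0.32 (adjusted p = 3.17e-07 and 0.00418). Epas1, a hypoxia-inducible factor, was at 2989, 496 and 729 in WT Mid replicates 1 to 3 and 148, 98.5 and 148 in ΔHx Mid. Its size was 1.63 ± 0.37 (adjusted p = 0.00672), a call that ended in the additive model of gate and genotype (0.0989). Over all libraries of a gate Epas1 had 3927 reads in Mid, 890 in High and 448 in Neg. The ΔHx Mid libraries were thus near the average of High, and the size rests mainly on WT Mid. Zfp36 and Junb, immediate early genes, had sizes of 1.28 ± 0.25 and 0.84 ± 0.21 (adjusted p = 0.00185 and 0.0143). Of 24 respiratory chain genes and 26 ribosomal protein genes 0 peaked and 0 dipped by limma, edgeR and DESeq2, also at an unadjusted p under 0.05, with a median difference of -0.01 and -0.00159.

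The dips were fewer and smaller. Ccdc3, which encodes a secreted coiled-coil protein, was at 0 to 17.4 (median 3.14) in Mid, 29.1 to 95.6 (median 61.3) in High and 35.3 to 88.2 (median 56.5) in Neg, with a size of -3.72 ± 0.61 (adjusted p = 0.000365). Popdc2, a membrane protein of heart and skeletal muscle that binds cyclic AMP, was at 0 to 28.8 (median 17.9) in Mid, 84.2 to 158 (median 113) in High and 35.5 to 139 (median 87.2) in Neg, with a size of -2.89 ± 0.61 (adjusted p = 0.00408). Both had Mid libraries at 0 and similar levels in High and Neg. Bmp5, a BMP ligand of lateral and extra-embryonic mesoderm, was at 14.8 to 112 (median 50.7) in Mid, 173 to 403 (median 347) in High and 171 to 274 (median 189) in Neg, with a size of -2.05 ± 0.32 (adjusted p = 0.000244). Runx1t1, a transcriptional corepressor, was at 28.7 to 53.6 (median 35.9) in Mid, 90.4 to 162 (median 128) in High and 189 to 261 (median 203) in Neg, with a size of -1.73 ± 0.18 (adjusted p = 1.59e-06). Chrdl1, a secreted BMP antagonist, was at 7.64 to 45.8 (median 33.3) in Mid, 46.2 to 117 (median 82.5) in High and 114 to 159 (median 128) in Neg, with a size of -1.51 ± 0.28 (adjusted p = 0.00112). Mid was below both gates in all 5, with a higher median in Neg than in High for Runx1t1 and Chrdl1.

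Dtx1, a ubiquitin ligase of the Notch pathway, was at 16.6 to 45.3 (median 35.2) in Mid, 56.4 to 172 (median 93.1) in High and 117 to 168 (median 133) in Neg, with a size of -1.69 ± 0.23 (adjusted p = 4.43e-05). Slc44a1, a choline transporter, and Erap1, which trims peptides in the endoplasmic reticulum, had sizes of -1.59 ± 0.22 and -1.60 ± 0.35 (adjusted p = 5.59e-05 and 0.0049). Adgrv1, a very large adhesion receptor, had a size of -1.55 ± 0.30 (adjusted p = 0.00194). Wscd1 and Tmem158 were at 4.11 to 19.5 (median 9.93) in Mid, 46.4 to 82.7 (median 58.3) in High and 37.3 to 51.3 (median 45.5) in Neg and at 30.2 to 54.8 (median 40.03) in Mid, 157 to 282 (median 218) in High and 127 to 194 (median 176) in Neg, with sizes of -2.10 ± 0.32 and -1.97 ± 0.17 (adjusted p = 0.000144 and 2.37e-07). Pmp22, a membrane protein of myelin that also marks extra-embryonic mesoderm, was at 59.2 to 127 (median 96.3) in Mid, 179 to 395 (median 263) in High and 902 to 1651 (median 1264) in Neg, with a size of -1.50 ± 0.15 (adjusted p = 7.3e-07). The 3 gates did not overlap in Pmp22. Irx3, a homeodomain factor of the neural plate, also dipped, at 79.1 to 146 (median 99.97) in Mid, 215 to 289 (median 229) in High and 377 to 527 (median 419.7) in Neg, with a size of -1.18 ± 0.16 (adjusted p = 3.18e-05). Itga2b, the integrin of platelets and early blood, was at 2.74 to 16.7 (median 13.8) in Mid, 68.4 to 108 (median 73.1) in High and 13.5 to 85.2 (median 41.7) in Neg, with a size of -1.82 ± 0.40 (adjusted p = 0.00532). Of the core histones 2 of 22 dipped, beside 1.86% of all genes. These were H2afx and H3f3a, with sizes of -0.28 ± 0.08 and -0.27 ± 0.06 (adjusted p = 0.0241 and 0.00579). H2afx missed the threshold on leaving out WT Mid replicate 1 (0.0687), WT High replicate 3 (0.0703), ΔHx Mid replicate 2 (0.0771) or 1 of ΔHx High replicates 1 and 3 (0.06 and 0.0551).

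The node, motile cilia and anterior visceral endoderm lists stood mostly between the other gates in Mid and held no peak. In node and notochord genes, markers of the axial mesoderm, 0 of 19 peaked or dipped (limma, edgeR and DESeq2, also at an unadjusted p under 0.05), while 17 were below High and 15 above Neg, beside 19.4% and 25.0% of all genes. Shh, the morphogen of the notochord, was at 27 to 142 (median 41.5) in Mid, 1809 to 3893 (median 2799.8) in High and 0 to 54.1 (median 13.4) in Neg, and Noto, a homeodomain factor of the node, was at 58.2 to 266 (median 123) in Mid, 1625 to 2896 (median 2172) in High and 0.906 to 30.8 (median 11.6) in Neg. Of 26 motile cilia genes 0 peaked or dipped in the same way, all 26 were below High and 23 above Neg, and Foxj1, their master regulator, was at 471 to 744 (median 621) in Mid, 3824 to 6367 (median 4565) in High and 8.11 to 107 (median 55.9) in Neg. For the anterior visceral endoderm list, 0 of 19 peaked or dipped by the same tools, 11 were below High and 17 above Neg, and Cer1, a secreted Nodal antagonist of that domain, was at 1827 to 3535 (median 2699) in Mid, 8814 to 12910 (median 10694) in High and 211 to 401 (median 284) in Neg. Definitive endoderm markers did give peaks, 3 among 20, beside 5.11% of all genes. These were Nepn, Spink1 and Cldn7, with sizes of 2.89 ± 0.37, 2.25 ± 0.27 and 0.49 ± 0.10 (adjusted p = 2.27e-05, 1.02e-05 and 0.00479). Spink1 is also on the visceral endoderm list. The call of Cldn7 ended with equal totals (adjusted p = 0.132). Without WT Mid replicate 1, and also with array weights, the list held 5 peaks, and it held 1 in the fit of WT alone and 5 in that of ΔHx alone, 1 of them in both.

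Blood and lateral mesoderm genes were mostly below Neg. Of 20 blood and endothelium genes 16 were below Neg, beside 24.1% of all genes, 0 peaked (0 at an unadjusted p under 0.05 and by edgeR and DESeq2) and 1 dipped, Itga2b, and the embryonic globin Hbb-bh1 was at 0 to 43.7 (median 1.14) in Mid, 0 to 1.65 (median 0) in High and 111 to 951 (median 659) in Neg. In the list of lateral and extra-embryonic mesoderm, which includes cardiac genes, 17 of 23 were below Neg and 14 above High (24.1% and 19.6% of all genes). Of the 23, 2 peaked (Bmp2 and Gata4) and 3 dipped (Bmp4, Bmp5 and Pmp22), beside 5.11% and 1.86% of all genes. With array weights 5 dipped. Hand1, a factor of that mesoderm, was at 4.11 to 51.2 (median 22) in Mid, 0 to 21.3 (median 8.3) in High and 1288 to 1622 (median 1434) in Neg. Of 21 Hox genes 13 were above High and 15 below Neg, and 0 peaked or dipped by limma, edgeR and DESeq2, also at an unadjusted p under 0.05. Hoxb1 was at 555 to 1765 (median 1158) in Mid, 97.5 to 285 (median 165) in High and 1201 to 1852 (median 1527) in Neg. Maternal decidua markers gave 0 peaks and 0 dips among 10 tested by the same tools, and took at most 0.00224% of the reads without Rn45s in any Mid library. Of 23 epiblast genes 1 peaked, near the 5.11% of all genes. This was Car4, a carbonic anhydrase, at 9278 to 12677 (median 10534) in Mid, 4502 to 8431 (median 5916) in High and 1834 to 2873 (median 2475) in Neg. Its size was 0.84 ± 0.10 (adjusted p = 1.02e-05).

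The 2 genotypes share no library, so each repeats the comparison of the other. In the 9 WT libraries alone 312 genes peaked (2.12%) and 37 dipped (0.252%). In the 9 ΔHx libraries alone 471 peaked (3.20%) and 118 dipped (0.802%). Of the peaks 236 were called in both, which is 75.6% of the WT peaks and 50.1% of the ΔHx peaks, and 0 genes that peaked in one dipped in the other. Of the 312 WT peaks 303 (97.1%) had a Mid mean above both ΔHx gates, beside 28.3% of all tested genes. Of the 471 ΔHx peaks 461 (97.9%) had a Mid mean above both WT gates, beside 26.5%. Of the dips 18 were called in both (48.6% of the WT dips and 15.3% of the ΔHx dips), and 35 of 37 WT dips (94.6%) lay below both ΔHx gates, beside 27.6% of all tested genes, and 112 of 118 ΔHx dips (94.9%) below both WT gates, beside 25.2%. The visceral endoderm list held 18 peaks in WT and 20 in ΔHx, 18 of them in both. The peak of Slc2a2 was 5.50 above the mean of High and Neg in WT and 6.88 in ΔHx, and that of Cubn 4.76 and 5.09.

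**Figure D5:**
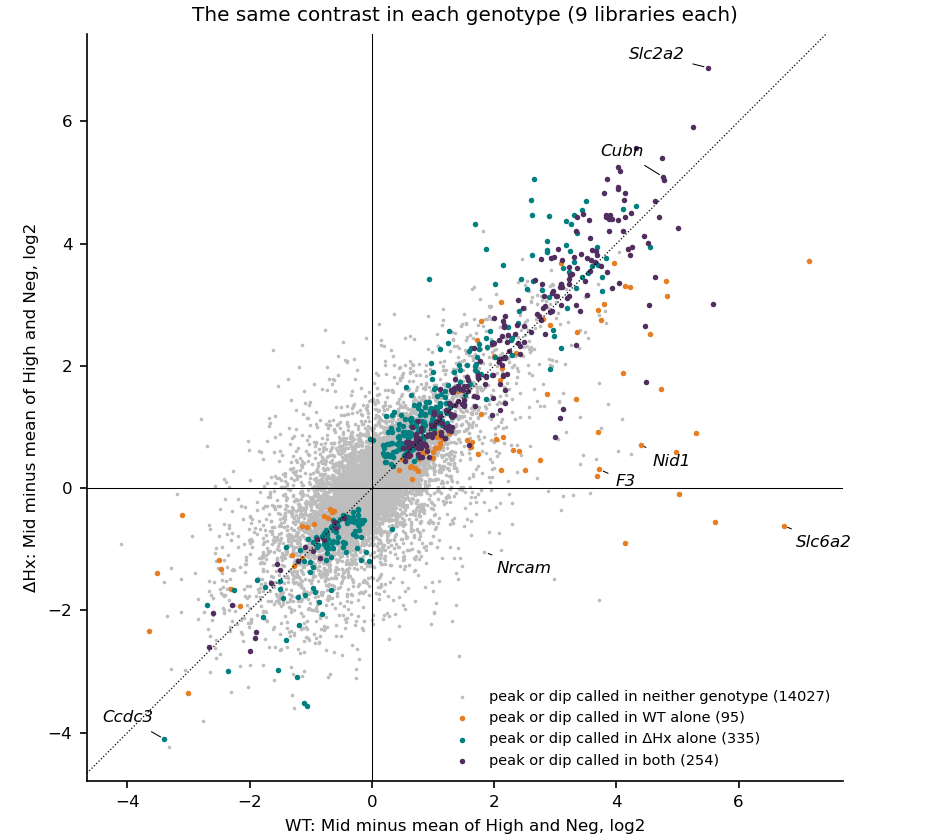
Each point is 1 tested gene, with the difference of Mid from the mean of High and Neg in the 9 WT libraries on the x axis and in the 9 ΔHx libraries on the y axis, in log2, and the dotted line marks equal values. Most genes called in both genotypes lie near the line, Cubn among them, and Slc6a2, Nid1, F3 and Nrcam lie far to its right.

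A test of the difference between genotypes in the same contrast called 4 genes, all with a lower contrast in ΔHx (0.0272%), and 0 with a higher one (0% of 14711). At an unadjusted p under 0.05 limma gave 526 lower and 305 higher, together 831 of 14711 genes. Genes without any difference pass that threshold at a rate of 0.05, so these 831 are not calls. At an adjusted p under 0.05 edgeR called 9 lower and 0 higher, and DESeq2 47 and 4. Slc6a2, the noradrenaline transporter, was at 482, 165 and 160.4 in WT Mid replicates 1 to 3 and 1.86, 0 and 1.14 in ΔHx Mid, and at 0 to 4.06 in all High and Neg libraries. Its contrast in ΔHx minus that in WT was -7.35 ± 0.93 (adjusted p = 0.00277), and it was close to absent from every library but the 3 of WT Mid. Nid1, nidogen of the basement membrane, was at 16229, 2245 and 3437 in WT Mid replicates 1 to 3 and 303, 496 and 512 in ΔHx Mid, a difference of -3.68 ± 0.56 (adjusted p = 0.0178). F3, the tissue factor that starts clotting, was at 1073, 184 and 494 in WT Mid replicates 1 to 3 and 59.6, 77 and 42.2 in ΔHx Mid, a difference of -3.41 ± 0.57 (adjusted p = 0.0396). Nrcam, an adhesion molecule of the immunoglobulin family, was at 529, 159.5 and 167 in WT Mid replicates 1 to 3 and 32.6, 25.4 and 47.9 in ΔHx Mid, a difference of -2.88 ± 0.49 (adjusted p = 0.0396). Each WT Mid library was above each ΔHx Mid library in all 4, and WT Mid replicate 1 was the highest. The calls of F3 and Nrcam were each lost under 15 alternatives. Without WT Mid replicate 1 the test called 12 genes lower, without WT Mid replicate 2 it called 50, and without any 1 of the others it called 1 to 6. Nid1 in ΔHx Mid lay within the range of High, so its peak, like that of Slc6a2, rests on WT. Over all libraries of a gate F3 had 209 reads in High and 313 in Neg, and Nrcam had 421 and 447. In ΔHx Mid Nrcam was thus below the average of either gate and F3 near that of Neg. The height of Mid in these genes also rests mainly on WT. The peak of Slc6a2 was not called by edgeR (adjusted p = 0.0799) or in the additive model (0.17), and that of F3 was not in the additive model (0.0738).

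Which Mid library led varied by gene. Among the 751 peaks the highest Mid library was WT Mid replicate 1 for 205 genes, ΔHx Mid replicate 3 for 180 and WT Mid replicate 3 for 160. Among the 273 dips the lowest was WT Mid replicate 1 for 115. Without WT Mid replicate 1 there were 695 peaks, of which 652 were among the 751, and 207 dips, of which 195 were among the 273. The visceral endoderm list then held 21 peaks, lysosomal enzymes 16, plasma proteins 17, lipoproteins 11, brush border genes 12, solute carriers 13, endocytic genes 9 and the basement membrane list 10.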

How the data were processed

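The deposited table holds 18 columns of normalized read signal, the reads per gene divided by a size factor of the library, for 24498 genes and 5 counter lines left out here. Per the submitters' processing notes the authors used STAR 2.5.2a, HTSeq 0.6.1, DESeq and DESeq2 with mm10. All 440964 values were whole reads (within 1e-06) once multiplied by the step of their library. Values were fitted as log2(value + 1) with limma 3.58.1 in R 4.3.3, with 6 group means and a trended variance. Genes were tested where 3 or more libraries reached 10. The fits were also run on simulated libraries, drawn independently and with equal means in High and Neg. Many genes here differ between High and Neg, so that run cannot vouch for the test against both gates. On the recovered reads edgeR 4.0.16 called 806 peaks and 233 dips, and DESeq2 1.42.0 called 942 and 376. Counter lines for reads outside genes were 7.17% to 12.1% and for reads not uniquely placed 37.7% to 41.3% of a library.

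Members and gene lists were chosen with earlier results of these data known. Named genes are Foxa2, the 12 largest peaks and dips whose Mid libraries overlap no other, with a mean of at least 20, up to 4 members of lists with at least 2 calls, and the genes called between genotypes. Other named genes were chosen after their values were seen. A few genes that this rule names are not reported here. p-values measure the spread between the 3 replicates of a group. Other scalings, filters, pseudocounts, tools, a replicate block and leaving out each library were tried.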

Additional observations from a re-analysis of the deposited data

Results flagged for a closer look

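In 4 genes the difference of Mid from the mean of High and Neg was itself different between the genotypes (limma interaction, 14711 genes tested), with all 3 WT Mid libraries above all 3 ΔHx Mid libraries. The difference, ΔHx minus WT, was -7.35 on the log2 scale for Slc6a2 (adjusted p = 0.00277), -3.68 for Nid1 (0.0178), -3.41 for F3 (0.0396) and -2.88 for Nrcam (0.0396). The calls of F3 and Nrcam were each lost under 15 alternatives and that of Nid1 under 6, while Slc6a2 was called under each of the alternatives in which it was tested.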

How the results depend on the processing

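Over the named genes and each alternative, 4654 values kept their direction and side of the threshold, 127 lost the call, 6 gained one and 0 changed sign. Peaks numbered 538 (equal totals) to 1012 (array weights), and 643 to 823 with 1 library left out. Dips numbered 413 with quantile normalization, 414 with a replicate block within genotype, 524 with array weights, 108 where no overlap was required, and 207 (without WT Mid replicate 1) to 415 (without WT Mid replicate 3) with 1 library left out. Genes lower in ΔHx numbered 9 with a pseudocount of 5, with equal totals and with edgeR, 8 with the replicate block within genotype, 47 with DESeq2, and 1 to 50 with 1 library left out. Genes higher in ΔHx numbered 1 with that block and 4 with DESeq2. Dips in WT alone numbered 88 with the block, 69 in the fit of all 18 libraries and 10 to 66 with 1 library left out. With 1 library left out, WT peaks numbered 202 to 276, ΔHx peaks 301 to 489 and ΔHx dips 57 to 151. The cause of these shifts was not tested. The labels used here do not say whether same-numbered libraries of a genotype share a pool, and the main fit did not pair them. Their 18 correlations were all above 0, at 0.0156 to 0.291, 5 of them over 0.1. Same-numbered libraries of different genotypes gave -0.171 to 0.082 in the same gate and -0.139 to 0.0227 in other gates. Whether a pool was shared was not tested, and the counts depend on that choice. A replicate block across genotypes gave 768 peaks and 279 dips, and within genotype 932 peaks. Genes with few reads, such as Pde6c and Anks4b, are limited by depth.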
